A study of Mus musculus with 2 samples.

Results

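Satb1, Tox, Themis, Gfi1, Myb and Arpp21 are 6 genes with known functions in developing thymocytes. They were taken from the GENCODE annotation of mm10 by name, 6 of 21938 protein-coding genes. Each was described over its domain, meaning the gene body and 50 kb on each side, from 109 kb at Gfi1 to 405 kb at Tox.

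The data are DNase-seq, in which the nuclease DNase I cuts open chromatin more often than packed chromatin. Male B6CASTF1/J mice, an F1 hybrid strain, gave the thymus tissue for both libraries at an age of 36 days, and the libraries form 1 group with no other condition. They are labelled as biological replicates 1 and 2 and their descriptions number the animals differently, but the labels give 1 donor identifier for both. Whether 1 or 2 mice were used is therefore unclear. Whole tissue was used, with all the cell types a thymus holds, and the hybrid carries a CAST genome beside the B6 reference to which positions refer. With 1 group of 2 libraries no test between groups was possible. Each value is given per library, beside the same measure over all protein-coding genes.

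T cells develop in the thymus from immature precursors through a stage with both coreceptors, CD4 and CD8, on the surface. At that stage signals from the T cell receptor decide which cells survive, and survivors keep 1 of the coreceptors. SATB1 is a chromatin organiser that binds AT-rich DNA, and TOX is a high mobility group protein needed for CD4 lineage development. THEMIS is an adaptor close to the receptor that binds GRB2 and the phosphatase encoded by Ptpn6. GFI1 is a zinc finger repressor, MYB a transcription factor of precursors and thymocytes, and ARPP21 an RNA-binding protein with an R3H domain.

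A peak is a stretch that the authors called open, and its signal is the height deposited with it. The shorter of the deposited peak lists was used, with 85367 peaks in the replicate 1 library and 60644 in the replicate 2 library. A peak within 1 kb of any annotated start of a gene was counted at its promoter, and a peak farther than that from every start was called distal. FDR intervals are stretches deposited with a false discovery rate of at most 0.05, and footprints are short stretches that the authors called protected within open chromatin. The files hold no read counts, so depth is unknown.

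The libraries stood apart at genes that mark cell types, with the replicate 1 library going against its label. Of 16 thymocyte markers, 3 had a promoter peak in the replicate 1 library and 16 in the replicate 2 library, with summed promoter signals of 8.34 and 98.99. Cd3d, Cd3e, Cd3g, Cd4, Cd8a, Rag1 and Rag2 had none in the replicate 1 library. Of the 15 pancreas acinar markers found in the annotation, 15 were open in the replicate 1 library and 4 in the replicate 2 library, with summed signals of 84.3 and 12.5. Ptf1a, a transcription factor of acinar cells, had a promoter signal of 6.95 in the replicate 1 library and no promoter peak in the replicate 2 library. Promoters of B cell markers were open in 2 of 6 cases in both libraries, and those of myeloid and dendritic cell markers in 0 and 1 of 7. Of 7 thymic epithelium markers, 4 were open in each library. The counts in the replicate 1 and 2 libraries were 2 and 4 of 5 for erythroid, 1 and 2 of 5 for endothelial, 3 and 3 of 5 for fibroblast and 5 and 4 of 5 for neuronal markers. The part that these differences had in the values of the 6 genes was not tested, and in bulk tissue fewer cells of a type and less open chromatin per cell cannot be told apart. The labels do not settle whether the replicate 1 library holds thymus alone, another tissue or a mixture, and this was not tested. Every value below that differs between the libraries may therefore not be a difference within thymus.

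Sequences that carry the main observations are printed first, from the mm10 reference (GRCm38.p6). Each runs 5′ to 3′ on the strand of its gene, and capitals mark the bases under footprints of the library named. Bases of untranslated regions are left out. The first set shows 3 elements that were open in both libraries and held a footprint at nearly the same bases in both. They lie near the 3′ end of Tox (chr4:6688741-6688900, minus strand, coding exon), in an intron of Themis (chr10:28844241-28844400, plus strand) and in an intron of Myb (chr10:21158161-21158360, minus strand).

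Tox 3′ element, replicate 1: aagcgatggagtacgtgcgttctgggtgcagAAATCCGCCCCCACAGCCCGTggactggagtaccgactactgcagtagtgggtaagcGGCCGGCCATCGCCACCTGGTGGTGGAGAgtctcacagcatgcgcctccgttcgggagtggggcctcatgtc

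Tox 3′ element, replicate 2: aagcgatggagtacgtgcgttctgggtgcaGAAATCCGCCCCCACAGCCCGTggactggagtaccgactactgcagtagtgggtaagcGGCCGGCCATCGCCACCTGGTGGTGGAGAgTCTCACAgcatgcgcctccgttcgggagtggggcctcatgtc

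Themis intron, replicate 1: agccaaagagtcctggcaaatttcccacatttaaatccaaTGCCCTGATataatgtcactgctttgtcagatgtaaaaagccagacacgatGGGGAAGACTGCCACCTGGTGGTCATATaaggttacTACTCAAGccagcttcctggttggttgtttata

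Themis intron, replicate 2: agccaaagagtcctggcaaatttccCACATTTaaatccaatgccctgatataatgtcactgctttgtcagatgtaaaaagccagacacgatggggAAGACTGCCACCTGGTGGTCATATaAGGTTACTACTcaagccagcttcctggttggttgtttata

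Myb intron, replicate 1: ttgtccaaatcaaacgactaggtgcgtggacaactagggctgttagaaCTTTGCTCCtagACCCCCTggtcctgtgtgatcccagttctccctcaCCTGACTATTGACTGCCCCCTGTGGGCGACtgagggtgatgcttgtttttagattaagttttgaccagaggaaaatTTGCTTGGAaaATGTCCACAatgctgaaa

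Myb intron, replicate 2: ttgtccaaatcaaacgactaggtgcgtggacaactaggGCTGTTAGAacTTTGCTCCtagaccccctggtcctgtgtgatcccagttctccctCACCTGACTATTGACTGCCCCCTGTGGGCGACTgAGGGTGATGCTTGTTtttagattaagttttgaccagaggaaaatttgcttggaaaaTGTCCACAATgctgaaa

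All of these elements held 1 match to CC followed by any 3 bases and then AGGNGGC, letters from the core of the sequence recognised by the insulator protein CTCF. This pattern was chosen after the footprints had been read, so their presence here is a description. On the printed strand they read GCCACCTGGTGG in Tox and Themis and GCCCCCTGTGGG in Myb. In each element the 12 bases lay wholly inside 1 footprint of each library, of 29 and 29 bases in Tox, 28 and 24 in Themis and 30 and 33 in Myb. Over all distal peaks that had a peak of the other library, 23.98% of those in the replicate 1 library and 24.2% in the replicate 2 library held the letters in the 200 bp around their midpoint, on either strand. Among distal peaks without one, the shares were 3.57% and 4.77%. The Tox element counts at a promoter, and of shared promoter peaks 7.90% and 8.42% held them. By the same 200 bp windows the letters were in 3 of 4 shared distal peaks of the replicate 1 library and in 3 of 5 of the replicate 2 library in the 6 domains, namely the Themis, Myb and Arpp21 elements. At Arpp21 the letters (chr9:112207956-112207967) lay inside the replicate 2 peak. They lay outside the replicate 1 peak (chr9:112207981-112208130), which is shorter than its window. A match of letters is no measurement of CTCF binding. Other copies of the letters in shared peaks lay inside no footprint. One is in the Arpp21 element printed next, where it touched a replicate 2 footprint, and one in a Gfi1 promoter peak (chr5:107724872-107724883), where it touched a replicate 1 footprint.

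The second set shows an intron element of Arpp21 (chr9:112207861-112208140, minus strand) that differed most in signal between the libraries, and in which no footprint of one library overlapped a footprint of the other.

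Arpp21 intron, replicate 1: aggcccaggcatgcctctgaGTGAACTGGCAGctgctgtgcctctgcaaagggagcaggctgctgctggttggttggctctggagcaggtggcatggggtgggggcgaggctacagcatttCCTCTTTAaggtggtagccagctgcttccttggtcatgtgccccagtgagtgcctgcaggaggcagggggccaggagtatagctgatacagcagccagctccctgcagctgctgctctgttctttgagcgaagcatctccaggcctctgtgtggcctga

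Arpp21 intron, replicate 2: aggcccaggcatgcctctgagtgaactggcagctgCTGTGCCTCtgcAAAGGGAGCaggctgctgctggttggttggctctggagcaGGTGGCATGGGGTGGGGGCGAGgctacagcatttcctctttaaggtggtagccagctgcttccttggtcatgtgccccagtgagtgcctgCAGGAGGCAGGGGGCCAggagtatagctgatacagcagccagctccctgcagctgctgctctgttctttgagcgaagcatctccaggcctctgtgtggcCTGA

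All 6 genes had a promoter peak in the replicate 2 library and 4 had one in the replicate 1 library, the exceptions being Themis and Arpp21. Over all protein-coding genes, 63.1% had a promoter peak in the replicate 1 library, 60.1% in the replicate 2 library and 56.7% in both. A promoter open in the replicate 2 library alone was seen at 2 of the 6 genes and at 3.37% of all genes. Among genes open in both libraries the strongest promoter signal was higher in the replicate 2 library at 83.0%, and this held for Satb1, Tox and Myb but not for Gfi1. The signals are in the authors' unit, whose scaling between libraries is not known. Over all promoter peaks with a partner the median ratio of replicate 2 to replicate 1 was 1.53, with quartiles of 0.974 and 2.08.

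**Figure D1:**
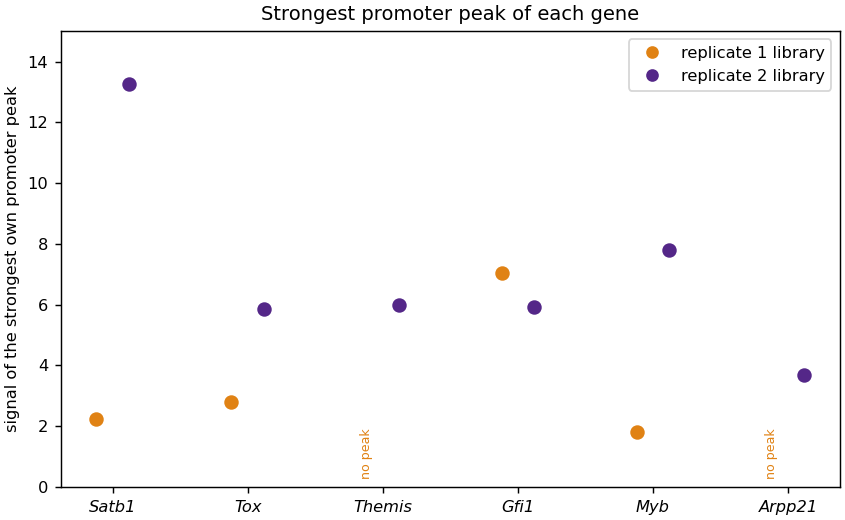
Signal of the strongest peak at any annotated start of each gene, 1 point per library, on a linear axis in the authors' signal unit. Satb1 reached 13.3 in the replicate 2 library, Gfi1 was the one gene with the higher value in the replicate 1 library (7.04 against 5.91), and Themis and Arpp21 had no promoter peak there.

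Satb1 (ENSMUSG00000023927.15, chr17:51736187-51833290, minus strand) had the strongest promoter of the 6 in the replicate 2 library. Its strongest promoter peak had a signal of 2.23 in the replicate 1 library and 13.3 in the replicate 2 library, but these peaks lie at different starts. The peak of 13.3 sits at the 5′ end of the gene (chr17:51833061-51833360, 5′ untranslated region) and was stronger than 95.03% of the peaks of its library. The peak of 2.23 sits 21.6 kb downstream, at an internal start (chr17:51811561-51811760, intron), where the replicate 2 library had neither a peak nor an FDR interval. At the 5′ end alone the replicate 1 library reached 0.972. The part of the 5′ peak outside untranslated sequence (chr17:51833061-51833162, minus strand) lies inside the gene body, downstream of the 5′ end of the gene. This stretch is 80.4% G and C and holds the GC box letters GGGCGG at positions 11 and 88, counted from 1 at the 5′ end of the stretch.

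Satb1 promoter, replicate 2: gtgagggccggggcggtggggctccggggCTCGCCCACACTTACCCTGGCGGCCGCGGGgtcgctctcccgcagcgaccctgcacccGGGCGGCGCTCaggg

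The replicate 2 footprints in this stretch, in capitals, number 2, and the one toward its 3′ end covers the second GC box. No footprint of the replicate 1 library fell there. Open chromatin in the replicate 2 library continued into the gene, with 14 peaks at the 12 annotated starts against 5 in the replicate 1 library. Among them were signals of 6.96 at 0.679 kb, 3.31 at 6.62 kb and 4.03 at 19.6 kb from the 5′ end. At 0.679 kb the overlapping peak of the replicate 1 library had 0.800, a ratio of 8.70, and at 19.6 kb it had 0.737, a ratio of 5.47.

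Distal openness of Satb1 was denser in the replicate 2 library than at 98.7% of all genes, and it came mainly from a run of weak peaks inside the gene. The replicate 1 library had 1 distal peak in the domain and the replicate 2 library 23. Of these, 20 lay in a run of 27 consecutive peaks over 18.0 kb (chr17:51793225-51811260, about 22 to 40 kb from the 5′ end), all among the weakest 20% of the library's peaks. The run was delimited after its values had been seen. The other 7 peaks of the run lay at starts of Satb1 (4) and of the noncoding gene 5830444F18Rik (3).

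Signals in this run were between 0.131 and 0.801, with a median of 0.362, yet the FDR was low. The lowest FDR in each peak ranged from 4e-05 to 5.29e-38, with a median of 7.95e-15. Of the 27 peaks, 18 reached 1e-10 or less, whereas 357 of the 11832 peaks of the library with a signal of at most 0.801 did so (3.02%, the 18 included). FDR intervals covered 10481 bp of the run (58.1%) in the replicate 2 library and 0 bp in the replicate 1 library, and footprints numbered 47 and 0. Without the run the distal density of Satb1 in the replicate 2 library was above that of 44.9% of all genes. It then had 3 distal peaks and 71 footprints in the replicate 2 library, against 1 and 26 over its whole domain in the replicate 1 library. The scaling of signal and FDR against their surroundings was not given in the sources used here, and its part in these values was not tested.

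**Figure D2:**
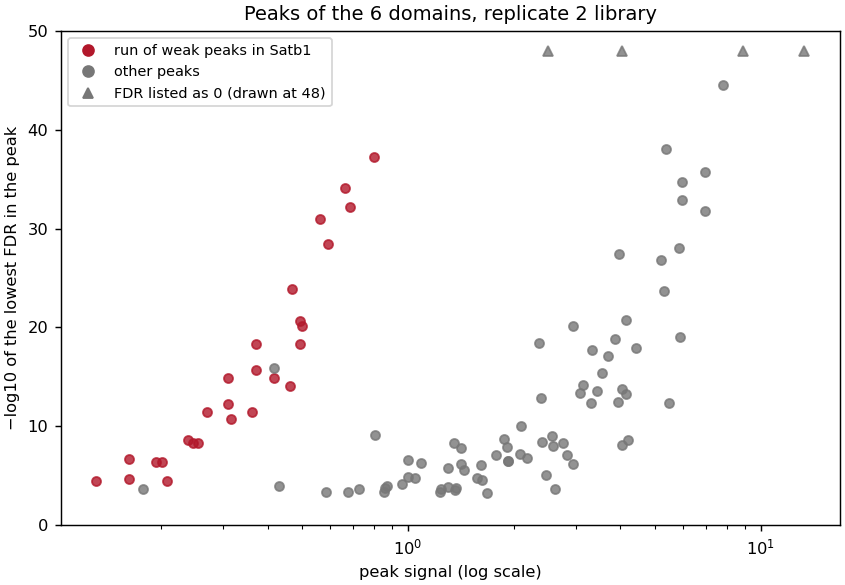
Every peak of the 6 domains in the replicate 2 library, by signal (log axis) and by −log10 of the lowest FDR it holds. The 27 peaks of the Satb1 run (red) have signals of 0.131 to 0.801 and lie above most other peaks (grey) of like signal, and triangles stand for an FDR listed as 0.

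The 3 distal peaks outside the run lay upstream of Satb1, 43.4, 46.1 and 47.3 kb from the 5′ end, with signals of 2.76, 2.58 and 1.63. The middle one (chr17:51879041-51879795) held 9 footprints. The replicate 1 library had no peak at any of these, and FDR intervals covered 19 bp of the middle one only. Its single distal peak lay in an intron 55.2 kb into the gene (chr17:51777981-51778180, minus strand as printed), with a signal of 0.596, and the replicate 2 library had no FDR interval there. This element is shown because it too holds the CTCF core letters, as CCACCAGGGGGC, which its footprint overlaps in part.

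Satb1 intron, replicate 1: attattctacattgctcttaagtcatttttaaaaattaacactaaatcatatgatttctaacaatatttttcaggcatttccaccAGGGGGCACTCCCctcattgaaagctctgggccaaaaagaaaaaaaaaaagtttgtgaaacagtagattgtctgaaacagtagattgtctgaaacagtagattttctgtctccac

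Tox (ENSMUSG00000041272.11, chr4:6686353-6991557, minus strand) was open at its promoter in both libraries and had 14 peaks in each. Its 5′ end carried signals of 2.81 in the replicate 1 library and 5.39 in the replicate 2 library, a ratio of 1.92. The 3′ element printed above, 303 kb from the 5′ end, had 2.63 and 5.86, a ratio of 2.23. It is counted at a promoter because 1 of the 4 annotated starts of Tox and a start of the noncoding gene Gm11802 lie nearby, although it sits in a coding exon. Both libraries thus had their 2 highest Tox signals at the ends of the gene.

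Inside Tox the libraries had similar numbers of distal peaks at mostly different places. The replicate 1 library had 8, all in introns, with signals between 0.463 and 1.98. The replicate 2 library had 9, of which 8 lay in introns and 1 was downstream, with signals between 0.586 and 1.87. None of the 8 overlapped a distal peak of the replicate 2 library. One of the 9, at 2.56 kb from the 5′ end, overlapped a peak that counts as promoter in the replicate 1 library (1.06 there and 1.00 in the replicate 2 library). The strongest intron peaks of the replicate 1 library, 1.98 at 82.5 kb and 1.73 at 66.3 kb, had no FDR interval in the replicate 2 library. Around 90 kb both libraries were open within about 2.5 kb, at 0.862 in the replicate 1 library and in 4 peaks of 0.863 to 1.05 in the replicate 2 library, but no 2 of these peaks overlapped. FDR intervals covered 2.11% of the domain in the replicate 1 library and 1.75% in the replicate 2 library, the one domain of the 6 with more in the former.

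Themis (ENSMUSG00000049109.15, chr10:28668360-28883818, plus strand) had its promoter open in the replicate 2 library alone. The replicate 1 library had no promoter peak in either of its peak lists and no FDR interval under the replicate 2 peak. In the replicate 2 library the peak (chr10:28668261-28668560, at the 5′ end and reaching into the 5′ untranslated region) had a signal of 5.98, a lowest FDR of 2.08e-35 and 7 footprints. The upstream 99 bases of the peak (chr10:28668261-28668359, plus strand), the part before the 5′ end of the gene, are printed. Most of the 7 footprints lie in the rest of the peak. The printed bases hold the MYB letters AACTGNC once, as GTCAGTT on the other strand at position 32, outside the footprints.

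Themis promoter, replicate 2: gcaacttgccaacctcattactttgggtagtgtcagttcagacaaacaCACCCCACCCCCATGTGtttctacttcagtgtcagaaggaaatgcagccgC

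Farther from the promoter Themis had 2 distal peaks in the replicate 1 library and 6 in the replicate 2 library. The intron element printed above, 176 kb into the gene, was the one in both, with similar signals of 1.09 and 1.35 (ratio 1.24). Over all shared distal peaks the median ratio was 1.12. The replicate 1 library's other peak, 0.541 at 62.0 kb, lay over 119 bp of FDR intervals of the replicate 2 library, which did not reach 0.001. The 5 remaining peaks of the replicate 2 library lay upstream at 49.96, 48.7 and 3.10 kb (0.855, 1.41 and 1.30) and in introns (0.431 and 0.809), with no FDR interval of the replicate 1 library under any of them. Within 0.181% of the Themis domain the replicate 1 library had FDR intervals, against 1.17% in the replicate 2 library.

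Gfi1 (ENSMUSG00000029275.18, chr5:107716657-107726036, minus strand) is the shortest of the 6 genes, and its strongest promoter signals were close in the authors' unit. The strongest promoter peak had a signal of 7.04 in the replicate 1 library (chr5:107725461-107725680) and 5.91 in the replicate 2 library (chr5:107725381-107725640), a ratio of 0.839. Of all genes, 85.1% had a lower promoter signal in the replicate 1 library and 63.3% in the replicate 2 library. By this measure Tox was more alike in the libraries, with 53.8% and 63.1%. Other shared peaks at its starts had ratios between 0.718 and 2.35. The noncoding gene A430072P03Rik starts in the same region, and its peaks cannot be told apart from those of Gfi1. The 180 bases of the replicate 2 peak outside untranslated sequence (chr5:107725381-107725560, minus strand) lie inside the gene body. They show footprints of both libraries at overlapping bases.

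Gfi1 promoter, replicate 1: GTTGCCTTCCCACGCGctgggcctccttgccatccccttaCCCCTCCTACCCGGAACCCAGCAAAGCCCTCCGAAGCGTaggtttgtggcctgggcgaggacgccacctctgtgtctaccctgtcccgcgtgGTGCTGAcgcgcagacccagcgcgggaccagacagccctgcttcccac

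Gfi1 promoter, replicate 2: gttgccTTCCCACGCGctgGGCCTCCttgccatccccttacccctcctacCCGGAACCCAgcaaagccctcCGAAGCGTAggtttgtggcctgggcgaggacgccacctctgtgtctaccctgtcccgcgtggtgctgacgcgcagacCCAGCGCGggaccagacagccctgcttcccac

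Of the 3 replicate 1 footprints in this stretch 2 overlapped footprints of the replicate 2 library, and of the 5 replicate 2 footprints 3 did. The Ikaros letters TGGGAA, here as TTCCCA at position 7, lay inside a footprint of both libraries. A second copy at position 174 lay in none.

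Distal peaks of Gfi1 numbered 3 in the replicate 1 library and 5 in the replicate 2 library, none of them shared. The replicate 2 library had its strongest in the gene, 7.97 kb from the 5′ end (chr5:107717841-107718300, intron, 5.50), followed by a pair upstream at 13.2 kb (4.14) and 12.5 kb (1.93). No FDR interval of the replicate 1 library fell under any of the 5. Conversely, the 3 distal peaks of the replicate 1 library, 1.18 in a coding exon, 0.988 in an intron and 0.455 in an intron of the neighbour Evi5, had none in the replicate 2 library. The promoters of 5830411K02Rik and Gm26692, noncoding genes 37.98 kb downstream of the Gfi1 5′ end, were open in both libraries (4.66 and 8.89).

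Myb (ENSMUSG00000019982.15, chr10:21124935-21160984, minus strand) was open at the same promoter in both libraries, with the higher signal in the replicate 2 library. Its strongest promoter peak had 1.82 in the replicate 1 library and 7.81 in the replicate 2 library, a ratio of 4.29, above the third quartile of 2.08 over all shared promoter peaks. With a promoter window of 2500 bp the strongest replicate 1 peak was an intron peak of 2.75, and the ratio fell to 2.84. A second promoter peak 0.687 kb upstream had 0.392 and 4.16, a ratio of 10.6. The stretch of the main peak upstream of the untranslated region (chr10:21160985-21161180, minus strand, 83.2% G and C) is printed for both libraries, since their footprints coincided here in spite of the difference in signal.

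Myb promoter, replicate 1: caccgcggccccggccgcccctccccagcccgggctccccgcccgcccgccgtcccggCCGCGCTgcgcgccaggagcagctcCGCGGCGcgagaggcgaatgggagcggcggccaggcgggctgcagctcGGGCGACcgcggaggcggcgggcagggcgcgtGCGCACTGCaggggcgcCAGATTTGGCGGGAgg

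Myb promoter, replicate 2: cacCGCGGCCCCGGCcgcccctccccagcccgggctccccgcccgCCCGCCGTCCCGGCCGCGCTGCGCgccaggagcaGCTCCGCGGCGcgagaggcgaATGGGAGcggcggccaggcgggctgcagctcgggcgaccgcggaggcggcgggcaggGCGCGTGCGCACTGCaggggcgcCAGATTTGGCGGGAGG

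Of 5 replicate 1 footprints 4 overlapped replicate 2 footprints, and of 6 replicate 2 footprints 4 overlapped replicate 1 footprints. The GC box letters GGGCGG occur 3 times on the other strand, at positions 15, 39 and 43, and no footprint holds a whole copy. The footprint next to the 3′ end of the stretch contains CAGATTTGGCGGGA in both libraries.

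In an intron near the 5′ end of Myb a pair of distal peaks was open in both libraries. The peak 1.85 kb from the 5′ end (chr10:21158961-21159300) had 2.75 in the replicate 1 library and 5.98 in the replicate 2 library. The one 2.72 kb away, printed above, had 1.497 and 5.20. These were the only distal peaks of Myb in the replicate 1 library. Myb had 10 in the replicate 2 library, and 9 of them belonged to the stronger 50% of all peaks of that library, against 8 of 49 at the other 5 genes together, 8 of 29 without the Satb1 run, and 38.2% of all distal peaks of the library. Between the shared pair lay a peak of 2.38 at 2.44 kb (chr10:21158381-21158700), at which the replicate 1 library had no peak but had FDR intervals over all 320 bp.

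The remaining distal peaks of the replicate 2 library lay on both sides of Myb. Downstream, at 67.5 to 68.1 kb from the 5′ end and between genes, were 3 peaks of 1.92, 3.54 and 5.32, the last of which (chr10:21092541-21093180) held 11 footprints. An overlapping pair of 4.05 and 2.94 lay 83.4 to 83.6 kb downstream, in an intron of the neighbour Ahi1. Upstream there were peaks of 2.60 at 35.8 kb and 1.24 at 43.1 kb. The replicate 1 library had no peak of the shorter list at any of these, though FDR intervals covered 376 and 156 bp of the Ahi1 pair and its longer list had a peak of 0.180 there.

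Arpp21 (ENSMUSG00000032503.18, chr9:112065091-112235938, minus strand) had the fewest open bases of the 6 in the replicate 1 library. That library had 1 peak in the domain of 271 kb, 2 footprints and 356 bp of FDR intervals (0.131%). The replicate 2 library had 13 peaks, 49 footprints and 6583 bp (2.43%). Of 26 annotated starts, those at the 5′ end carried up to 2.56 in the replicate 2 library, and the strongest promoter peak, 3.69, lay at an internal start 18.6 kb into the gene (chr9:112217221-112217540). No FDR interval of the replicate 1 library fell under any of the 6 promoter peaks. The stretch of the internal promoter peak outside untranslated sequence (chr9:112217352-112217540, minus strand) holds the E protein letters 3 times, and 1 of the copies, CAGGTG at position 53, lies inside a footprint.

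Arpp21 internal promoter, replicate 2: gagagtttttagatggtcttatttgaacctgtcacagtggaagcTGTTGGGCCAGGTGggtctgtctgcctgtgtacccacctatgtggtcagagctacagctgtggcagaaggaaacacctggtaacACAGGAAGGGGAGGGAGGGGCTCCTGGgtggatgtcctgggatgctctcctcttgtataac

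The strongest element of Arpp21 was the intron peak printed above, 27.9 kb from the 5′ end. It had a signal of 0.243 in the replicate 1 library and 6.95 in the replicate 2 library, a ratio of 28.6. In the former 0.902% of the library's peaks were weaker, and in the latter 85.9%. The lowest FDR in the peaks was 0.000107 and 1.99e-36. It held 2 replicate 1 and 5 replicate 2 footprints, and none of the one overlapped any of the other. Another 5 distal peaks, all in introns, had signals between 1.23 and 3.44 in the replicate 2 library and no FDR interval in the replicate 1 library.

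**Figure D3:**
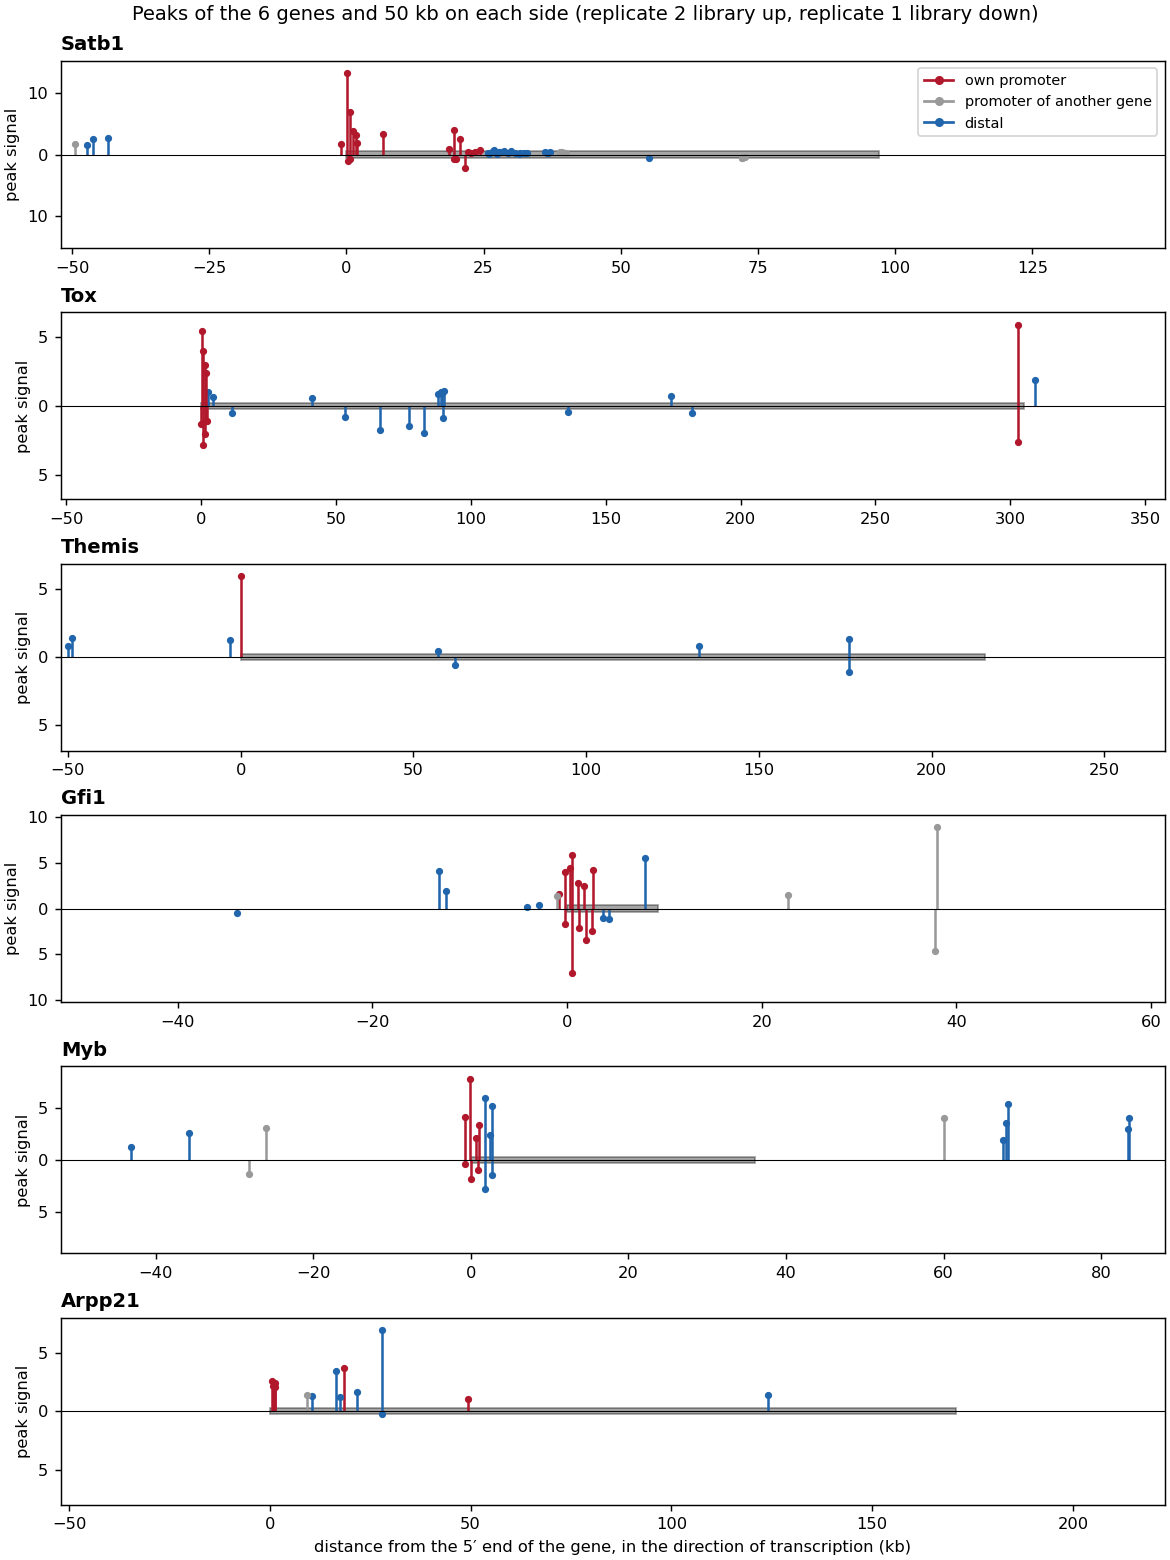
Peaks of each gene body (grey bar) and 50 kb on each side, by distance from the 5′ end of the gene in kb, with the height of each line giving the signal in the replicate 2 library (upward) or the replicate 1 library (downward), scaled per gene. The weak blue peaks of Satb1 at 25 to 37 kb and the Myb peaks beyond 60 kb have no counterpart below the axis.

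Seen together, the 6 domains held 17 distal peaks in the replicate 1 library and 59 in the replicate 2 library, although the replicate 1 library had more distal peaks in all (52339 against 34595). This is 3.25 and 17.1 per 10000 distal peaks of the library. Without the Satb1 run the number in the replicate 2 library was 39. Every one of the 6 genes had more distal peaks in the replicate 2 library than in the replicate 1 library, as did 21.3% of all genes. The margins at Tox (8 and 9) and Gfi1 (3 and 5) were small, and with the weakest 10% of all peaks of each library left out both genes had equal numbers in the 2 libraries. The order turned at Tox with the longer list (20 and 15) and with the stronger 50% of peaks (3 and 1), and at Gfi1 in the gene body alone (2 and 1). Themis had no distal peak of either library among the stronger 50% of peaks. The median over the 6 genes was 2 distal peaks in the replicate 1 library and 7.5 in the replicate 2 library, beside 3 and 2 over all genes. These counts come from domains of unlike length, with a median of 234 kb for the 6 genes and 117 kb for all genes. Per 100 kb the medians were 1.05 and 3.40 for the 6 genes, beside 2.62 and 1.80 over all genes.

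FDR intervals also covered more bases in the replicate 2 library, except at Tox. They covered 27139 bp of the 6 domains in the replicate 1 library and 54592 bp in the replicate 2 library, and more in the replicate 2 library at 5 of the 6 genes and at 20.4% of all genes. At Gfi1 the bases numbered 7714 and 9029 and at Myb 5199 and 8704. Footprints numbered 149 and 413, with more in the replicate 2 library at each gene and at 34.6% of all genes, from 50 and 52 at Tox to 26 and 118 at Satb1. The libraries held 316358 and 270843 in all.

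**Figure D4:**
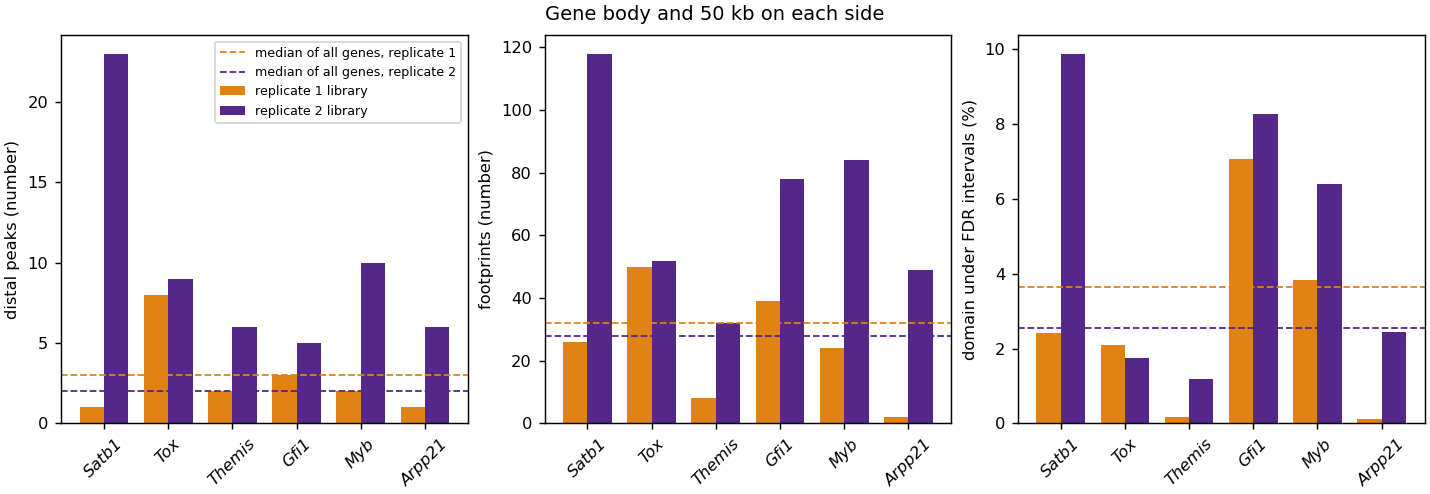
Number of distal peaks, number of footprints and share of the domain under FDR intervals for each gene, bars by library, with dashed lines for the median over all protein-coding genes. Peak and footprint counts are not scaled by domain length, whose median was 234 kb for the 6 genes and 117 kb for all genes. Satb1 and Myb stand highest in the replicate 2 library for distal peaks (23 and 10) and footprints (118 and 84), and Tox is nearly equal in the 2 libraries.

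Few of the distal elements were found in both libraries. In the replicate 1 library 4 of 17 distal peaks overlapped a peak of the other library (23.5%, beside 32.3% of all its distal peaks), and in the replicate 2 library 5 of 59 did (8.47%, beside 49.1%). Without the Satb1 run this was 5 of 39 (12.8%). Beyond 2500 bp of a start the shares were 15.4% and 5.00%, and with the longer list they were 28.9% and 14.8%. Shares over all distal peaks are given here only for the 1 kb limit and the shorter list, so these have no like value beside them. Any FDR interval of the other library was present under 7 of the 17 (41.2%, all distal peaks 40.4%) and 11 of the 59 (18.6%, all 58.0%). Without the Satb1 run the latter was 11 of 39 (28.2%). Footprints that overlapped a peak by at least 1 bp behaved likewise. Of 100 in the replicate 1 library 41 overlapped a footprint of the other (41.0%, beside 40.1% over all peaks), and of 284 in the replicate 2 library 40 did (14.1%, beside 46.2%). The 284 include footprints of the Satb1 run, where the replicate 1 library had none. The share in the replicate 1 library was 70.0% at Myb and 55.0% at Gfi1, and 0 of 2 at Arpp21.

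Letters recognised by T lineage factors, and the more general GC box, AP-1 and NFY letters, were counted in the 200 bp around the midpoint of each peak, on both strands. Among the 59 distal peaks of the replicate 2 library, MYB letters (AACTGNC) were in 12 (20.3%, beside 10.8% of all 34595), GATA letters (AGATAA) in 9 (15.3%, beside 6.83%) and TCF/LEF letters (CTTTGAA) in 5 (8.47%, beside 4.504%). RUNX letters (TGTGGTT) were in 5 (8.47%, beside 7.95%), and E protein letters (CAGCTG or CAGGTG) in 23 (39.0%, beside 39.6%). ETS letters (AGGAAGT) were in 2 (3.39%, beside 11.5%) and GC boxes in 2 (3.39%, beside 11.2%). Ikaros letters (TGGGAA) were in 14 (23.7%, beside 18.2%) and GFI1 letters (AAATCAC) in 3 (5.08%, beside 1.84%). Of the 59 peaks, 20 belong to the weak Satb1 run, and these shares include them. In the 17 distal peaks of the replicate 1 library, MYB letters were in 3 (17.6%, beside 11.7% of all 52339) and GATA letters in 3 (17.6%, beside 10.3%). RUNX letters were in 1 (5.88%, beside 4.55%), E protein letters in 8 (47.1%, beside 40.4%) and ETS letters in 0 (beside 5.497%). TCF/LEF letters were in 0 (beside 4.21%) and GC boxes in 2 (11.8%, beside 7.79%). Ikaros letters were in 3 (17.6%, beside 23.2%) and GFI1 letters in 0 (beside 2.37%). AP-1 letters were in 0 (beside 6.91%) and NFY letters in 5 (29.4%, beside 22.8%). The mean G and C content of the windows was 48.9% in the replicate 2 library (beside 52.4% over all its distal peaks). In the replicate 1 library it was 48.6% (beside 50.5%). The part of base composition in the shares was not tested. Overlapping peaks share letters, and these counts are descriptions without a test.

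Other genes of thymocyte selection and the T lineage, 40 in a fixed list, also had more open promoters in the replicate 2 library. Of these, Cd5, Lat, Lck and Zap70 are also among the thymocyte markers above. A promoter peak was present at 31 of the 40 in the replicate 1 library and at 40 in the replicate 2 library, beside 63.1% and 60.1% of all genes. Those open in the replicate 2 library alone, 9 in all, included the transcription factor genes Bcl11b and Egr3, the surface receptor genes Cd69, Cd5, Cd6 and Ccr7, and Lat and Zap70, which encode proteins of receptor signalling. The median promoter signal was 2.52 and 8.48, beside 2.16 and 2.19 over all genes. The median number of distal peaks was 6 and 9, beside 3 and 2. Distal peaks were more numerous in the replicate 2 library at 27 genes and in the replicate 1 library at 9. For the THEMIS partners, Grb2 had promoter signals of 7.39 and 19.3 and Ptpn6 of 3.72 and 7.09. Zbtb7b, whose product directs the CD4 lineage, ran the other way, with 9.43 and 2.99.

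Paralogs of the 6 genes served as a second comparison, 11 in all. Promoters of 10 were open in both libraries, and Themis3 had no promoter peak in either. Distal peaks were more numerous in the replicate 2 library at 5 and in the replicate 1 library at 6. Over all 21938 genes these counts were 4663 (21.3%) and 11359. Tox2 had promoter signals of 0.721 and 2.68 with 3 and 8 distal peaks, while Tox3 had 2 and 1. Gfi1b had 1.72 and 1.52 with 16 and 8 distal peaks.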

How the data were processed

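DNase-seq of 2 libraries labelled thymus (1 group) was described from the deposited peak, footprint and FDR files. Per the labels, positions are on mm10. The deposited peak lists give a signal per peak, which was a whole multiple of 0.00784 (replicate 1) or 0.00771 (replicate 2) in 100% of peaks (tolerance 0.05 steps). The deposited footprints carry a score of 0.01 in every row, so they were not ranked, and the deposited FDR tables list a p-value-like FDR per interval, with 0.05 as the limit. Aligner, callers, thresholds and signal scaling were not given in the sources used here, and depth is unknown.

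Genes, starts and sequences came from GENCODE vM21 and GRCm38.p6. Peaks overlapped when they shared at least 1 bp. Scripts used Python 3.11.15, numpy 2.4.6 and pyfaidx 0.9.0.4, and interval counting was tested on simulated data. Named are the 6 genes, their strongest promoter peak, 3 strongest distal peaks per library, shared distal peaks, paralogs (some list members are not reported here) and, per gene, the 3 protein-coding genes nearest by Euclidean distance over 4 log2 values (computed here as log2 of 1 plus promoter signal or distal count, per library). Other peaks, list genes and the CTCF letters were chosen after their values were seen. The genes and lists were chosen with earlier results of these data known. Alternatives varied windows, flanks, lists and FDR limit.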

Additional observations from a re-analysis of the deposited data

How the results depend on the processing

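The count of genes with a promoter peak, 4, 6 and 4 in replicate 1, replicate 2 and both, was the same with promoter windows of 500 and 2500 bp, the longer list, the stronger 50% of peaks and the 5′ end only. Using a single library it was 4 (without replicate 2) to 6 (without replicate 1). Distal peaks of the replicate 1 library numbered 38 with the longer list and 5 with the stronger 50% of peaks. In the replicate 2 library they numbered 17 with the stronger 50% of peaks and, in an alternative chosen after seeing the data, 37 without the weakest 10%. Merging overlapping peaks, also added later, gave 17 and 53, and values without the Satb1 run were added later too. The share of distal peaks with a partner was 40.0% in the replicate 1 library and 11.8% in the replicate 2 library with the stronger 50% of peaks. The same share over all distal peaks is not given at this setting. The number of genes with more distal peaks in the replicate 2 library was 6 with a 20 kb flank, 5 with the longer list or beyond 2500 bp, and 4 with the gene body only, the stronger 50% or without the weakest 10%. Footprints lying wholly inside a peak numbered 96 and 274. FDR intervals of at most 0.001 covered 17149 bp in the replicate 1 library. The Arpp21 promoter signal at the 5′ end only was 2.56. No paired analysis was possible because the 2 libraries form 1 group. Causes of these shifts were not tested, beyond each alternative counting fewer or more features. Unknown depth limits every statement that a peak was not listed.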

Other observations

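By promoter signal and number of distal peaks in both libraries (log2 of 1 plus each value), the gene most like Satb1 was Nsg2 (distance 0.98), with promoter signals of 1.55 and 9.15 and 1 and 13 distal peaks in the replicate 1 and 2 libraries. Gmip (1.11) and Gm20422 (1.17) followed among 21345 genes with a domain 0.5 to 2 times as long. The 23 distal peaks of Satb1 in the replicate 2 library, which enter these distances, include 20 of the weak run. Tox was nearest to Shq1 (0.33), Nrxn2 (0.33) and Btbd11 (0.35). The closest gene to Themis was Msn (0.41), with a promoter signal of 0.282 in the replicate 1 library and 5.10 in the replicate 2 library, ahead of Plxdc2 (0.48) and Dclk2 (0.66). Gfi1 lay nearest to Lin7b (0.32), Rad54l2 (0.32) and Asb1 (0.32), and Myb to Grk2 (0.34), Fam167b (0.47) and Mfhas1 (0.48). Arpp21 was closest to Cd84 (0.47), Begain (0.48) and Crmp1 (0.53), none of which had a promoter peak in the replicate 1 library.

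The CTCF core letters (CC, any 3 bases, AGGNGGC) were also found in 1 of the 54 distal peaks of the 6 domains that only the replicate 2 library had, beside 4.77% of all such peaks. In the replicate 1 library they were found in 1 of 13, beside 3.57%, the 1 being the Satb1 intron element. In the Myb domain a peak of the replicate 1 library at the promoter of the noncoding gene Gm40608, 28.2 kb upstream, held them inside a footprint of 27 bases of the replicate 2 library, which had no peak there on its shorter list and one of 1.86 on its longer list.

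A signal of at most 0.801 with an FDR of at most 1e-10 was also seen at 2 peaks of the 6 domains outside the Satb1 run. A peak 2.88 kb upstream of Gfi1 in the replicate 2 library (chr5:107728801-107729020) had a signal of 0.416 and a lowest FDR of 1.27e-16. The Themis intron peak at 62.0 kb in the replicate 1 library (chr10:28730241-28730400) had 0.541 and 1.1e-12.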
